A study of Rattus norvegicus with 12 samples.

Results

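The comparison concerned the testes of young rats that all received estradiol and ate a diet based on either soy protein or casein. It rested on 6 of the 12 arrays of the series, 3 labelled soy estradiol and 3 labelled caseine estradiol, and on all 31042 probe sets that are not Affymetrix controls, of which 21729 passed a filter on low values and were tested. The 6 arrays were found by their sample titles. Male Sprague-Dawley pups were raised on the casein AIN-93G diet until weaning, then ate either that diet or AIN-93G with soy protein isolate (SPI) in place of casein from postnatal day 21 to 33, and testes were taken on postnatal day 34. The casein estradiol and soy estradiol groups in addition received 17beta-estradiol at 10 µg per kg per day under the skin from an osmotic minipump. The casein and soy groups without estradiol, 3 arrays each, ate the same diets, and are given beside the estradiol arrays where a reading needs them. Every array was made from 8 µg of total RNA of whole testis, which mixes germ cells, Sertoli cells, Leydig cells and the other cells of the organ. Whether each array stands for 1 animal is not given in the sources used here, so the p-values below measure the spread between these samples, which may be technical. All values are log2 expression values after quantile normalisation of the 12 arrays, so that a difference of 1 is a change of 2-fold; replicates are given in the order 1, 2, 3.

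At this age the first wave of sperm production is reaching the spermatid stage. Spermatids are haploid germ cells that replace their histones first with transition proteins and then with protamines, and that build the acrosome and the tail of the sperm. Estradiol is known to lower the release of gonadotrophins from the pituitary and with it the making of testosterone by Leydig cells, on which spermatid development depends. Isoflavones, which bind to estrogen receptors, are present in soy protein. The epididymis, the duct that stores sperm, lies on the surface of the testis with the fat pad beside it, and its epithelium makes proteins that coat the sperm.

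The testis was recognisable in all 6 arrays. Cst12, a cystatin of Sertoli cells, lay between 11.77 and 12.12, Insl3, a hormone of Leydig cells, between 10.42 and 10.92, and Prm1, a protamine of spermatids, between 13.60 and 14.33. Over all 31042 probe sets, arrays of one group correlated at r = 0.995 to 0.997 on casein with estradiol and at r = 0.988 to 0.993 on soy with estradiol. Spread was larger under estradiol than without it: 824 probe sets (3.79% of those tested) had a range of over 1 log2 unit across the 6 estradiol arrays, against 239 (1.1%) across the 6 arrays without estradiol.

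Soy and casein testes under estradiol differed little, with a median absolute difference of 0.089 log2 units over all tested probe sets. The SD between arrays of 1 diet under estradiol, pooled over the diets, had a median of 0.12 there. Its median was 0.30 over the spermatid list described below, 0.20 over the muscle, 0.23 over the epididymis and 0.21 over the fat list. Some other lists were as wide, such as that of peritubular myoid cells at 0.23. In limma's moderated test 1 of 21729 probe sets (0.0046%) passed an adjusted p of 0.05, and 98.5% of the differences were under 0.5 log2 units. Without estradiol 97.5% of the diet differences were under 0.5 too, though 2114 probe sets (9.73%) were called there. Which arrays entered the fit decided the count of calls under estradiol. Without casein estradiol replicate 2 and soy estradiol replicate 1 together, 704 probe sets (3.24%) were called, 274 higher and 430 lower on soy. Without soy estradiol replicate 3, 372 (1.71%) were called, and with limma's array weights, 499 (2.3%). These weights are estimated from the spread of each array around its group. They were 6.31, 0.77 and 0.57 on casein with estradiol and 0.27, 0.22 and 1.79 on soy with estradiol. Casein replicate 1 and soy replicate 3 thus dominated the weighted fit. The spread between arrays is therefore given first.

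Spermatid transcripts varied together among the estradiol arrays, most within the casein group. Of 48 genes listed as spermatid transcripts, 32 had a probe set with 1 gene symbol and 31 were tested. Relative to each gene's mean over the 12 arrays, the median of the 31 genes lay at -0.16, -0.14 and -0.69 in the casein estradiol arrays and at -0.46, -0.24 and -0.05 in the soy estradiol arrays. The lowest array was thus casein estradiol replicate 3 and the next lowest soy estradiol replicate 1, and the diets overlapped. The distance from the lowest to the highest of these 6 medians was 0.64. In the 6 arrays without estradiol the same median lay between 0.22 and 0.36. Casein estradiol replicate 3 was the lowest of the 6 arrays for 19 of the 32 measured genes, soy estradiol replicate 2 for 7 and soy estradiol replicate 1 for 6; soy estradiol replicate 3 was the highest for 15. In whole tissue, fewer spermatids and less RNA per spermatid cannot be told apart.

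**Figure D1:**
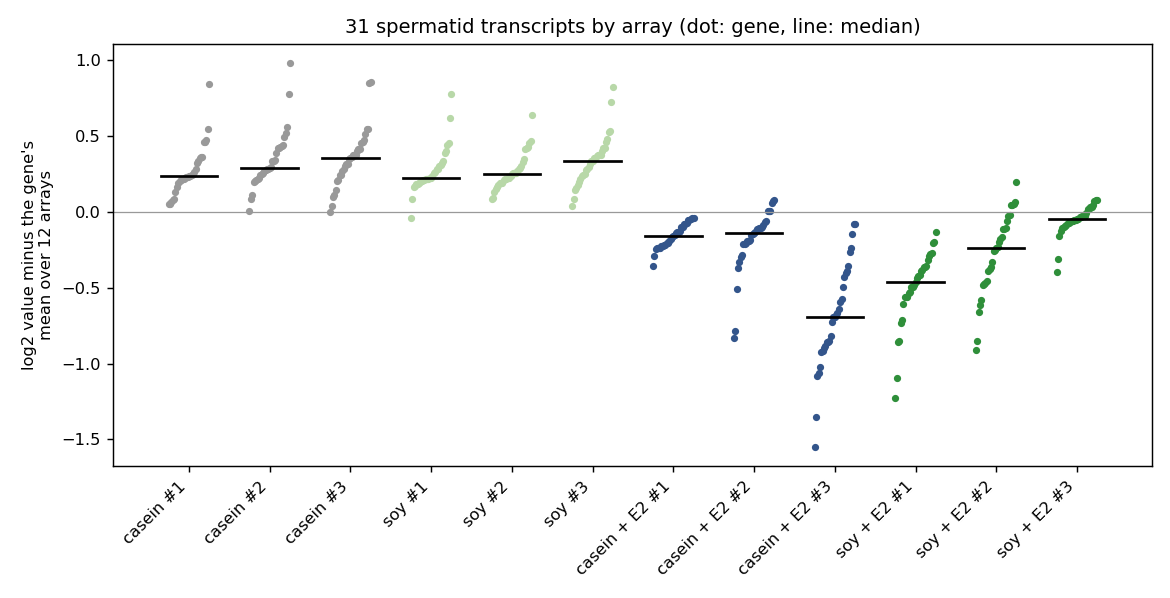
Each dot is 1 of 31 spermatid genes in 1 array, as its log2 value minus the gene's mean over the 12 arrays (vertical axis); the horizontal axis gives the arrays by diet, estradiol (E2) and replicate number, and the line marks the median. The medians of the 6 arrays without estradiol lie at 0.22 to 0.36, those of the estradiol arrays between -0.69 (casein replicate 3) and -0.05 (soy replicate 3).

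The promoters of 3 chromatin genes of the list are shown because these genes varied together across the 6 arrays. In addition, 1 of them carries the full palindrome of the cAMP response element, which is bound by CREM, a transcription factor of spermatids. The sequences are the 150 bases before the RefSeq start of each gene on GRCr8, 5′ to 3′ on the gene's own strand, in lower case with the element TGACGTCA in capitals. Tnp1 lies on the minus strand (chr9:82044279-82044428), and Tnp2 (chr10:5386585-5386734) and Prm1 (chr10:5378590-5378739) lie close together on the plus strand.
Tnp1: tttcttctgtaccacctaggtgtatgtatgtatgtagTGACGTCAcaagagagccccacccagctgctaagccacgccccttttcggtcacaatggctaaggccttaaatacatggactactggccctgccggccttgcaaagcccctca
Tnp2: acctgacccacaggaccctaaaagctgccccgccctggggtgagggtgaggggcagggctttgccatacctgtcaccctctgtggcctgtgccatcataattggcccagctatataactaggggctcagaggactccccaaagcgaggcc
Prm1: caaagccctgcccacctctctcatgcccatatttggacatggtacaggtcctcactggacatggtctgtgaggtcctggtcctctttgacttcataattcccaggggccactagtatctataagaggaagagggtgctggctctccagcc
The element starts 113 bases before the start of Tnp1. It was searched as these 8 letters, which read the same on both strands, in the 250 bases before each start. Forms that differ from it in any letter were not searched, so the other promoters may hold a related element. Of the 32 measured spermatid genes 29 had a promoter in the RefSeq table, and Tnp1 was the 1 gene among them with the element (3.45%). The element was held by 1.59% of all 33469 promoters there. The letters describe the sequence and name no site that was used in these testes.

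Tnp1, transition protein 1, was at 13.66, 13.37 and 12.88 in the casein estradiol arrays and at 13.21, 13.49 and 13.81 in the soy estradiol arrays. Tnp2, transition protein 2, was at 13.24, 12.88 and 12.33 on casein and at 12.68, 13.06 and 13.32 on soy. Both were lowest in casein replicate 3 and highest in soy replicate 3, and the 2 diets overlapped. The diet difference (soy minus casein) was 0.20 ± 0.17 (SE, n = 3 arrays per diet, 95% interval -0.17 to 0.57) for Tnp1 and 0.20 ± 0.19 for Tnp2. Prm1, the protamine that replaces the transition proteins, was at 14.25, 13.99 and 13.60 on casein and at 13.80, 14.05 and 14.33 on soy. In all 6 arrays without estradiol Prm1 had the value 14.57, the top of the normalised scale. Quantile normalisation gives the highest probe set of each array the same value, so Prm1 differences between those arrays cannot be read from it.

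Prm2, the second protamine, had the widest range of the list, 1.48. It was at 11.08, 10.51 and 9.75 in the casein estradiol arrays and at 10.21, 10.94 and 11.23 in the soy estradiol arrays. Its diet difference of 0.34 ± 0.29 (SE) had a 95% interval from -0.29 to 0.97 and an adjusted p of 0.641 in limma. Prm3, a gene of the protamine cluster, was at 11.61, 11.61 and 10.88 on casein and at 11.29, 11.96 and 11.84 on soy. Both protamine genes shared the low value of casein replicate 3 and of soy replicate 1.

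The same 2 arrays were low for genes of other spermatid structures. Acrv1, an acrosome protein, was at 10.87, 11.12 and 10.31 on casein and at 10.74, 11.42 and 11.22 on soy. Akap4, a scaffold of the sperm tail, was at 10.77, 10.68 and 9.93 on casein and at 10.28, 10.55 and 10.96 on soy. Fscn3, a testis actin-bundling protein, was at 9.13, 8.45 and 7.93 on casein and at 8.06, 8.43 and 8.89 on soy. Not every member followed. Crisp2, a secretory protein of the acrosome, spanned only 0.17 across the 6 arrays, with values of 14.02, 14.08 and 13.99 on casein and 13.94, 13.90 and 14.02 on soy, and Cabyr, a calcium-binding tail protein near the filter, spanned 0.24. Gapdhs, the spermatid form of the glycolytic enzyme, was lowest in soy estradiol replicate 2 (11.79), where the protamine genes were not low.

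Between the diets, no spermatid gene passed the adjusted test. At an unadjusted p under 0.05, 0 of 31 were higher and 1 was lower on soy, beside 5.51% higher and 7.3% lower of all tested probe sets. That gene was Spam1, a hyaluronidase of the sperm surface, at 10.12, 10.07 and 9.68 on casein and 9.33, 9.79 and 9.87 on soy (difference -0.30 ± 0.14, limma adjusted p = 0.384). The median diet difference of the 31 genes was 0.11, against 0.0054 for all tested probe sets. Single arrays turned its sign: without casein estradiol replicate 3 it was -0.070 and 6 of the 31 genes were higher on soy, without soy estradiol replicate 3 it was -0.024, and without casein replicate 2 and soy replicate 1 it was 0.27, with 26 genes higher and Acrv1 past the adjusted test. That last fit called 704 of all 21729 tested probe sets (3.24%), 274 of them higher on soy.

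Skeletal muscle transcripts stood out in casein estradiol replicate 2. Acta1, the actin of skeletal muscle, was at 5.30, 10.37 and 4.99 in the casein estradiol arrays and at 6.23, 5.44 and 5.81 in the soy estradiol arrays, and lay between 5.23 and 6.24 in the arrays without estradiol. Tnnc2, troponin C of fast muscle, was at 5.79, 9.02 and 6.15 on casein and at 6.37, 6.18 and 6.09 on soy. Ckm, the creatine kinase of muscle, was at 6.18, 7.66 and 6.15 on casein and at 6.22, 6.25 and 6.05 on soy. In each of these genes casein replicate 2 was the highest array, with the other 5 between 4.99 and 6.23 for Acta1, between 5.79 and 6.37 for Tnnc2 and between 6.05 and 6.25 for Ckm. Genes under the filter showed the same array: Myl1, a myosin light chain, was at 8.21 there and at 4.68 to 4.999 in the other 5, and Myh4, a myosin heavy chain of fast fibres, at 5.59 there and at 3.17 to 3.30 in the other 5.

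Of 51 listed muscle genes 49 were measured and 30 tested. Casein estradiol replicate 2 was the highest of the 6 arrays for 32 of the 49, and 11 were over 1 log2 unit above the other arrays of its group. Log2 of the summed linear level of the list was 12.70, 13.18 and 12.56 in the casein estradiol arrays and 12.69, 12.93 and 12.72 in the soy estradiol arrays, and 12.86 to 12.99 without estradiol. Some listed genes did not follow Acta1. Tnnc1, troponin C of slow and cardiac muscle, was at 8.26, 7.77 and 7.08 on casein and at 7.03, 8.06 and 8.25 on soy, with its low values in casein replicate 3 and soy replicate 1; it lay at 9.52 to 9.81 in the arrays without estradiol. Myh1 and Smpx, listed as muscle genes, lay at 9.96 or higher in all 12 arrays and varied by no more than 0.73 among the estradiol arrays. No muscle gene passed the adjusted test for diet or an unadjusted p under 0.05. The diet difference of Acta1, -1.06 ± 1.00 (SE), rests on that 1 array.

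Some epididymal transcripts, though not the list as a whole, were high in soy estradiol replicate 1. Adam7, a membrane protein of the epididymal epithelium, was at 5.75, 5.65 and 5.80 in the casein estradiol arrays and at 9.39, 5.79 and 5.85 in the soy estradiol arrays. Cd52, a surface glycopeptide that the epididymis and lymphocytes make, was at 4.91, 6.38 and 4.43 on casein and at 8.95, 6.17 and 5.43 on soy. Ces5a, a carboxylesterase secreted by the epididymis, was at 6.03, 7.10 and 6.33 on casein and at 8.81, 6.73 and 6.46 on soy. Soy replicate 1 was the highest estradiol array for these 3 genes, while casein replicate 2 held the second highest value of Cd52 and Ces5a but not of Adam7.

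High values of this kind also occurred without estradiol, in other arrays. Cd52 reached 8.43 and Ces5a 9.38 in casein replicate 1, and 7.76 and 8.41 in soy replicate 2, where Adam7 was at 6.03 and 5.92. Rnase12, a ribonuclease-family gene that is not on the list, was at 5.46, 5.59 and 5.52 in the casein estradiol arrays and at 9.04, 5.85 and 5.39 in the soy estradiol arrays. Slc38a5, a glutamine transporter also outside the list, was at 9.86 in soy estradiol replicate 1 and at 5.85 to 6.13 in the other 5. The same array was the highest for a pair of epithelial genes. Cdh1, E-cadherin, was at 5.48, 5.94 and 5.21 on casein and at 7.92, 5.39 and 6.18 on soy, and Krt8, an epithelial keratin, at 5.16, 5.64 and 5.17 on casein and at 7.44, 5.38 and 6.17 on soy. A probe set that the annotation gives to several genes, and that is therefore not named, showed the widest range of all: 4.84, 5.61 and 4.75 on casein against 13.73, 8.03 and 5.87 on soy.

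The epididymis list is thin on this array: of 42 genes 14 were measured and 11 tested, and several of those, such as Cst8, Eppin, Aqp9 and Enpp3, are also made in the testis. Soy estradiol replicate 1 was the highest array for 6 of the 14, and 3 of the 14 lay over 1 log2 unit above the other soy arrays there. The median of the 11 tested genes, relative to their means over the 12 arrays, was -0.12 in that array, beside -0.11 and -0.095 in soy replicates 2 and 3 and -0.29, -0.16 and -0.25 on casein. Cst8, at 10.03 in soy replicate 1 and at 10.57 and 10.50 in the other soy arrays, and Enpp3 went the other way. Summed over the list, log2 of the linear level was 11.72, 11.82 and 11.51 on casein and 12.31, 11.99 and 11.97 on soy, against 12.08 to 12.34 in the arrays without estradiol. Under an unadjusted p of 0.05, 3 of 11 genes were higher and 0 lower on soy, beside 5.51% and 7.3% of all tested probe sets, and none passed the adjusted test. These 3 were Enpp3, an ectonucleotidase, at 7.83, 8.20 and 7.70 on casein and 8.13, 8.75 and 8.58 on soy, Eppin, a protease inhibitor on the sperm surface, and Cst8, a cystatin of spermatids and epididymis. They were not the genes that stood out in soy replicate 1, apart from Eppin, which was highest there (9.90). Without casein replicate 2 and soy replicate 1, 2 of the 11 genes passed the adjusted test, Enpp3 by 0.90 (limma adjusted p = 0.036) and Cst8 by 0.64 (0.045), both higher on soy. That fit called 704 of all 21729 tested probe sets (3.24%), 274 of them higher on soy. Enpp3 was highest in soy replicate 2, as were 230 of the 274. The diet difference of Adam7 was 1.28 ± 0.69 (SE, 95% interval -0.22 to 2.78), and its value outside soy replicate 1 spanned 5.65 to 5.85.

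Some fat transcripts separated the estradiol arrays in another way. Car3, a carbonic anhydrase abundant in fat and slow muscle, was at 8.31, 9.84 and 6.88 on casein and at 9.91, 7.44 and 10.08 on soy. Fabp4, the fatty acid carrier of adipocytes, was at 6.25, 7.51 and 4.91 on casein and at 6.88, 6.07 and 8.23 on soy. Lpl, lipoprotein lipase, was at 6.89, 7.92 and 6.37 on casein and at 7.73, 6.70 and 8.09 on soy. Casein replicate 2, soy replicate 1 and soy replicate 3 were high and casein replicate 3 was lowest in all 3 genes. Without estradiol, soy replicate 2 was high in the same genes, with Car3 at 9.71 and Fabp4 at 7.87. Adipoq, the adipocyte hormone, moved over a narrower span, from 5.85 to 6.37 across the estradiol arrays, again with casein replicate 3 lowest and soy replicate 3 highest. Of 23 listed fat genes 17 were tested, and at an unadjusted p of 0.05 1 was higher (Cfd) and 1 lower (Pnpla2) on soy, beside 5.51% and 7.3% of all tested probe sets.

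**Figure D2:**
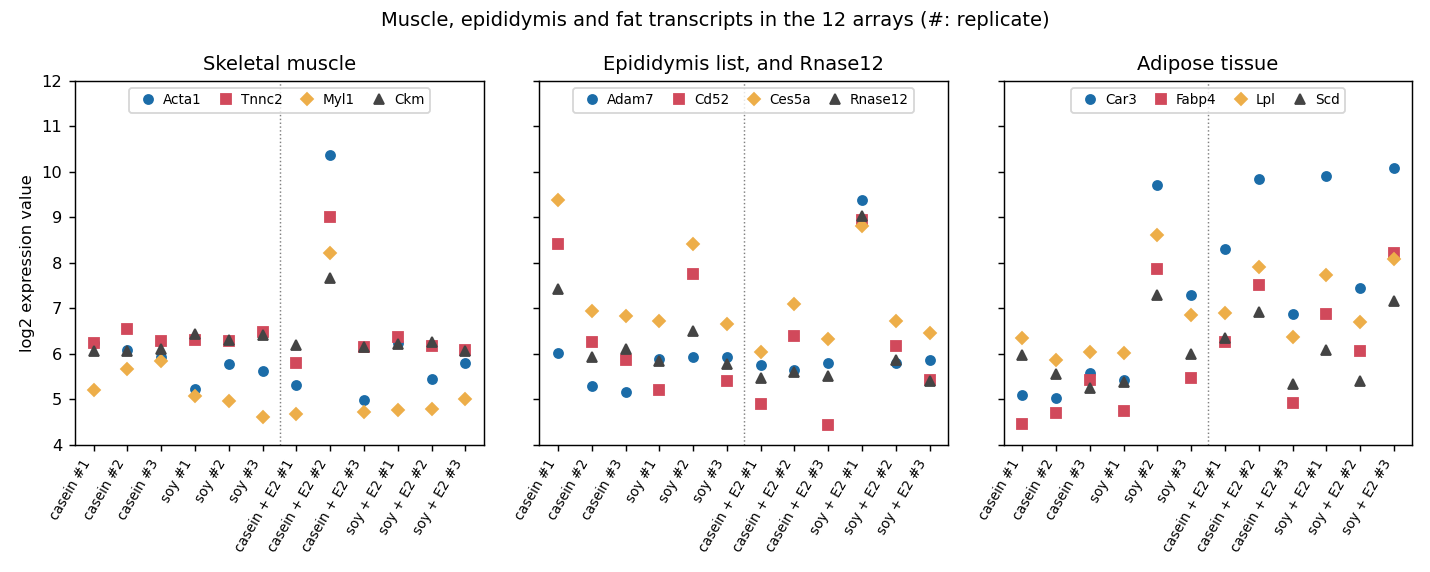
Log2 expression value (vertical axis) of 4 genes each of the muscle list, the epididymis list with Rnase12 added, and the fat list, in the 12 arrays (horizontal axis, by diet, estradiol (E2) and replicate number); the dotted line parts the arrays without and with estradiol. Acta1 reaches 10.37 in casein estradiol replicate 2, Adam7 reaches 9.39 in soy estradiol replicate 1, and Car3 lies between 6.88 and 10.08 across the estradiol arrays.

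Soy estradiol replicate 2 held many low values. In it 165 probe sets lay over 1 log2 unit below the mean of the other 2 soy estradiol arrays, against 23 in replicate 1 and 8 in replicate 3, and 1 to 10 such probe sets lay below their group in arrays without estradiol. Of the 165, 129 were also over 1 log2 unit below the mean of the casein estradiol arrays. The other 36 were not, and among them were Adam7, Cd52, Rnase12, Slc38a5, Cdh1, Krt8, Car3, Fabp4 and Lpl, the transcripts given above as high in soy replicates 1 or 3. Among the 129, Uqcrc2, a core subunit of mitochondrial complex III, was at 9.96, 9.69 and 10.15 on casein and at 9.65, 6.86 and 9.30 on soy. Eif3l, a subunit of translation initiation factor 3, was at 11.40, 10.70 and 11.36 on casein and at 10.56, 8.10 and 10.21 on soy. Arf1, a small GTPase of the Golgi, was at 11.47, 11.05 and 11.53 on casein and at 11.17, 8.76 and 10.73 on soy. Soy replicate 2 lay apart from the other 5 arrays in each, and in Uqcrc2 and Eif3l the other 2 soy arrays were also below every casein array.

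Some other probe sets of the same genes were less low. The 129 probe sets named 118 genes, and 88 of those had 133 further probe sets not themselves over 1 log2 unit below. Their median distance from the other soy arrays was -0.19, against -1.25 for the 129 and 0.017 for all tested probe sets. The further probe sets were picked for not being that low, so their smaller distance follows in part from the choice. A second probe set of Uqcrc2 read 11.61, 11.24 and 11.27 on soy, and a second one of Arf1 read 12.32, 11.52 and 12.02. The control probe sets for beta-actin moved with these genes. The 3′ beta-actin control was at 12.79, 12.47 and 13.00 on casein and at 12.69, 11.22 and 12.37 on soy, and the 5′ control at 11.26, 10.52 and 11.45 on casein and at 10.72, 9.71 and 10.55 on soy. The difference between the 3′ and 5′ controls, a sign of RNA length, was 1.51 in soy replicate 2 and 1.53 to 1.97 in the other 5 arrays. The part of RNA quality in these low values was not tested.

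**Figure D3:**
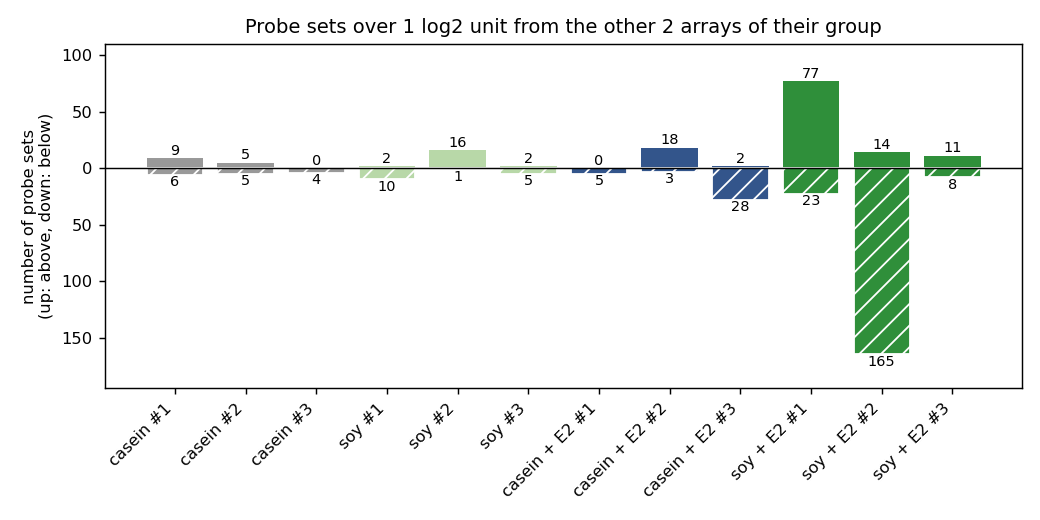
Number of probe sets (vertical axis, of 21729 tested) that lay over 1 log2 unit above (upward bars) or below (downward hatched bars) the mean of the other 2 arrays of their group, for each of the 12 arrays by diet, estradiol (E2) and replicate number. Soy estradiol replicate 2 has 165 below its group and soy estradiol replicate 1 has 77 above.

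Turning to the diet itself, the 1 called probe set, 1382482_at, has no gene symbol in the annotation used here. It was at 5.77, 6.04 and 5.62 in the casein estradiol arrays and at 6.72, 6.62 and 6.69 in the soy estradiol arrays, so that the diets did not overlap. The difference was 0.87 (limma adjusted p = 0.024). Without estradiol the diet difference was of the opposite sign, -0.49, and the change in the diet difference, 1.36, passed its own test (limma adjusted p = 0.00099). The call was lost when any of casein estradiol replicates 1 and 3 or soy estradiol replicates 1 and 2 was left out, with only the 6 estradiol arrays, with the replicate number as a block and without casein replicate 3 and soy replicate 1 together. The difference stayed between 0.75 and 0.98 over the alternatives run.

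At an unadjusted p under 0.05 there were 2784 probe sets (12.8%), 1198 higher and 1586 lower on soy. The 3 soy arrays did not overlap the 3 casein arrays in 3147 probe sets (14.5%). The named genes with the smallest p all had a limma adjusted p of 0.184, and none passed the test over all probe sets.

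Of these, Serpinb9, an inhibitor of granzyme B, was at 8.42, 8.29 and 8.44 on casein and at 9.05, 9.11 and 8.80 on soy, a difference of 0.60 ± 0.10 (SE, n = 3). Mex3a, an RNA-binding protein, was at 6.27, 6.23 and 6.38 on casein and at 6.76, 7.02 and 6.75 on soy. Plac8, a small cysteine-rich protein, was at 7.17, 7.32 and 7.35 on casein and at 7.62, 7.86 and 7.99 on soy. These were higher in every soy array than in any casein array, and so were the next in rank, Tcf4, a transcription factor of the E protein family (difference 0.37), and Id2, an inhibitor of that family (0.41). Second probe sets of these genes were less clear: the other probe set of Serpinb9 differed by 0.12, that of Tcf4 by -0.0081, that of Id2 by -0.26, and those of Mex3a by at most 0.14.

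Lower on soy were Atp8a1, a phospholipid flippase, at 6.56, 6.54 and 6.29 on casein and at 6.05, 5.86 and 5.90 on soy, a difference of -0.53 ± 0.09 (SE). Efhd1, a mitochondrial calcium-binding protein, was at 11.71, 11.59 and 11.61 on casein and at 11.08, 10.97 and 11.25 on soy. Ankrd54, an ankyrin repeat protein, differed by -0.55, Hdgfl1, a testis gene of the hepatoma-derived growth factor family, by -0.37, and Ahcyl1, a regulator of the IP3 receptor, by -0.44. In each the diets did not overlap. The other 2 probe sets of Atp8a1 differed by -0.08 and -0.09, and those of Ahcyl1 by 0.06 and -0.02. All 10 genes passed limma's adjusted test with the array weights, which casein replicate 1 and soy replicate 3 dominated. Without casein replicate 2 and soy replicate 1, 9 did so, and 7 without soy replicate 3. Those fits called 2.3%, 3.24% and 1.71% of all tested probe sets. The 10 genes were picked for the smallest p in largely the same arrays, so these counts give no independent support.

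**Figure D4:**
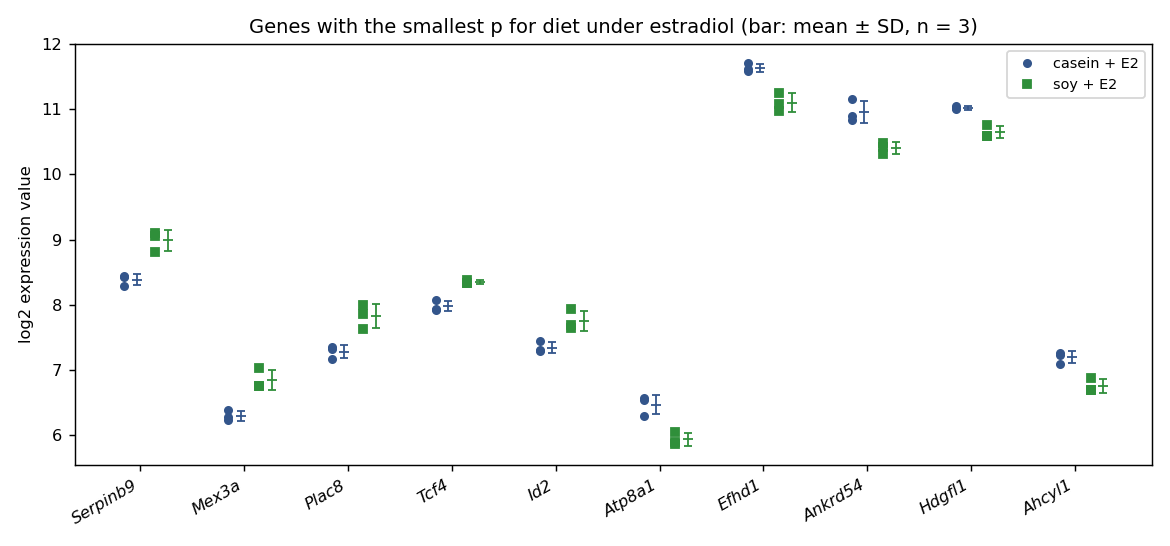
Log2 expression value (vertical axis) of the 10 named genes with the smallest p for diet under estradiol (horizontal axis), in the 3 casein estradiol arrays (circles) and the 3 soy estradiol arrays (squares); the bar beside each group is its mean ± SD (n = 3). Serpinb9 differs by 0.60 and Atp8a1 by -0.53, and in none of the 10 do the groups overlap.

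The calls made without casein replicate 2 and soy replicate 1 lay mostly at the extremes of soy estradiol replicate 2. Of the 430 probe sets called lower on soy there, soy estradiol replicate 2 was the lowest of all 6 arrays in 407 and casein estradiol replicate 2 the lowest casein array in 419. Of the 274 called higher, soy estradiol replicate 2 was the highest in 230. That fit held only replicates 2 and 3 of soy estradiol and 1 and 3 of casein estradiol, which favours such patterns among the calls. The shares of these patterns over all tested probe sets were not counted. Tmed2, a cargo receptor of the early secretory pathway, was at 9.61, 8.44 and 9.89 on casein and at 8.51, 7.55 and 8.01 on soy. The beta-actin controls given above lay in nearly the same order, with casein replicates 1 and 3 highest and soy replicate 2 lowest; their part in these calls was not tested. Of the 704 probe sets 400 (56.8%) had an unadjusted p under 0.05 with all arrays. Both without that pair and without soy replicate 3, 50 probe sets were called in the same direction, which is 7.1% of the 704 and 13.4% of the 372. The weighted fit shared 275 of its calls with the 704 (39.1% of the 704, 55.1% of the 499) and 104 with the 372 (28.0% of the 372, 20.8% of the 499).

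No gene listed for the somatic cells of the testis passed the adjusted test, and their counts at an unadjusted p of 0.05 stand beside 5.51% higher and 7.3% lower of all tested probe sets. Among 22 tested Sertoli genes 1 was higher and 0 were lower at an unadjusted p of 0.05, namely Cst12, at 11.77, 11.77 and 11.92 on casein and 12.02, 12.12 and 11.93 on soy. Among 20 Leydig genes 2 were higher and 1 was lower. Insl3, the peptide hormone of Leydig cells that guides testis descent, was at 10.92, 10.59 and 10.64 on casein and at 10.48, 10.42 and 10.48 on soy, a difference of -0.26 ± 0.09 (SE, limma adjusted p = 0.288); it lay at 12.06 to 12.39 without estradiol. Ptgds, a prostaglandin D synthase, was at 8.06, 8.58 and 8.21 on casein and at 10.07, 8.62 and 9.08 on soy, and was highest in soy replicate 1, the array with the epididymal transcripts. Among 12 peritubular myoid genes Cald1 and Myl9, both of the smooth muscle contractile apparatus, were higher on soy by 0.32 and 0.33 at unadjusted p = 0.0035 and 0.0071.

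Immune genes were spread over the soy arrays. Cd74, the invariant chain of MHC class II, was at 8.64, 8.72 and 9.02 on casein and at 10.15, 8.61 and 9.72 on soy. RT1-Bb, a class II chain, was at 9.87, 10.17 and 10.01 on casein and at 10.37, 10.20 and 10.69 on soy. Soy replicate 2 was not raised in Cd74 and lay just above the casein arrays in RT1-Bb. These were the 2 of 18 tested macrophage genes with an unadjusted p under 0.05, both higher on soy. Of all tested probe sets 5.51% were higher and 7.3% lower at that p. The list's median difference was 0.16, against 0.0054 for all tested probe sets. That median was 0.066 without soy replicate 1, 0.075 without casein replicate 1 and 0.038 without casein replicate 2 and soy replicate 1. It was 0.13 without casein replicate 2, 0.17 without casein replicate 3, 0.15 without soy replicate 2 and 0.20 without soy replicate 3. A second probe set of RT1-Bb went the other way, by -0.69.

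Germ cell genes of earlier stages had small p values in both directions, given beside 5.51% higher and 7.3% lower of all tested probe sets. Of 12 tested pachytene genes 0 were higher and 3 lower at an unadjusted p of 0.05, and of 8 early meiosis genes 1 was higher and 0 lower. Tcp11, a sperm function gene, was at 12.42, 12.23 and 12.32 on casein and at 11.83, 11.82 and 12.09 on soy (difference -0.41, limma adjusted p = 0.184). Ybx2, an RNA-binding protein that stores germ cell transcripts, differed by -0.32, and Ccna1, the cyclin of male meiosis, by -0.34. Of 24 cell cycle genes 1 was higher, Mki67 by 0.27, and 4 were lower, Aurka, Aurkb, Plk1 and Cdc20, by -0.31, -0.46, -0.40 and -0.38. Among 11 spermatogonial genes Etv5, a transcription factor of stem cell renewal, differed by -0.43, Id4 by -0.24 and Sall4 by 0.25. None of these passed the adjusted test.

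Of 19 tested cholesterol synthesis genes 0 were higher and 6 lower at an unadjusted p of 0.05, beside 5.51% and 7.3% of all tested probe sets. The 6 became 2 without soy replicate 2, 2 without casein replicate 1 and 3 without casein replicate 3. In those fits 1054, 985 and 1187 of all tested probe sets were lower at that p, against 1586 with all arrays. The 6 became 8 without soy replicate 1 and 5 without soy replicate 3, and stayed 6 without casein replicate 2. There 2342, 2088 and 1541 of all tested probe sets were lower. The list's median difference was -0.026, close to that of all probe sets. Sqle, squalene epoxidase, was at 9.59, 9.48 and 9.35 on casein and at 8.98, 8.91 and 9.31 on soy. Fdft1, squalene synthase, was at 10.86, 10.80 and 10.78 on casein and at 10.50, 9.98 and 10.67 on soy. Mvk, mevalonate kinase, differed by -0.28, and Mvd, Msmo1 and Hsd17b7 by -0.17, -0.46 and -0.26. Soy replicate 2 was the lowest of the 6 arrays for Sqle, Fdft1, Mvk, Mvd and Msmo1. Of 20 genes of fatty acid oxidation and PPAR targets 1 was higher, Cpt1a by 0.26, and 4 were lower, beside the same shares: Cd36 by -0.67, Hadhb by -0.30, Cpt2 by -0.26 and Cpt1b by -0.25.

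No estrogen target or xenobiotic gene passed the adjusted test. Of 11 tested estrogen targets 2 were higher and 1 lower at an unadjusted p of 0.05, and of 12 xenobiotic genes 1 was higher and 2 lower, beside 5.51% and 7.3% of all tested probe sets. Greb1, a coregulator induced by estrogen in several tissues, was at 6.50, 6.71 and 6.42 on casein and at 6.91, 6.81 and 7.12 on soy, a difference of 0.40 ± 0.10 (SE, limma adjusted p = 0.204), while its second probe set differed by -0.03. Nrip1, a nuclear receptor corepressor, differed by 0.26 and Cyp1b1, which hydroxylates estradiol, by -0.28. Sult1a1, a sulfotransferase that conjugates phenols, was at 8.78, 8.76 and 8.63 on casein and at 9.29, 9.09 and 9.01 on soy (difference 0.41, limma adjusted p = 0.184). Myh6, a myosin heavy chain named for heart, was at 7.88, 8.26 and 7.92 on casein and at 8.56, 8.50 and 8.41 on soy, and at 6.06 to 6.51 without estradiol. In Greb1, Sult1a1 and Myh6 the diets did not overlap. The other lists stand beside the same shares: 0 of 11 interferon genes had an unadjusted p under 0.05, 1 of 14 immediate early genes was higher, 2 of 17 heat shock and endoplasmic reticulum stress genes were higher and 1 lower, 1 of 8 cardiac genes was higher, 1 of 9 endothelial genes was lower and 1 of 3 blood genes was lower. Of 11 tested genes of the rete testis and efferent ducts, which join testis and epididymis, 3 were higher and 2 lower, among them Spp1, osteopontin, at 8.14, 8.31 and 8.50 on casein and at 8.03, 7.39 and 7.61 on soy.

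The diet differences seen without estradiol did not recur under it. Without estradiol 2114 of 21729 probe sets (9.73%) were called, 1437 higher and 677 lower on soy. Of the 1437, 49.0% had a positive difference under estradiol, and their median went from 0.39 without estradiol to -0.0019 under it; of the 677, 40.6% had a negative difference under estradiol, and their median went from -0.38 to 0.04. Across the 21729 probe sets the 2 diet differences, which share no array, had r = 0.025 and rho = -0.030, across genes that are not independent replicates. The change in the diet difference passed limma's test in 741 probe sets (3.41%), 244 of them higher and 497 lower under estradiol. In 656 of the 741 the diet difference without estradiol was also called, and in 605 the 2 differences had opposite signs. A large change between 2 differences favours opposite signs, so the count of 605 follows in part from the selection. The share of opposite signs over all tested probe sets was not counted. Among the genes named for their small p, over all probe sets or within a list, the change was called for Serpinb9, Mex3a, Plac8, Tcf4, Id2, Efhd1, Myh6, Greb1 and Sult1a1. Whether it was called for genes named for other reasons is not given here.

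**Figure D5:**
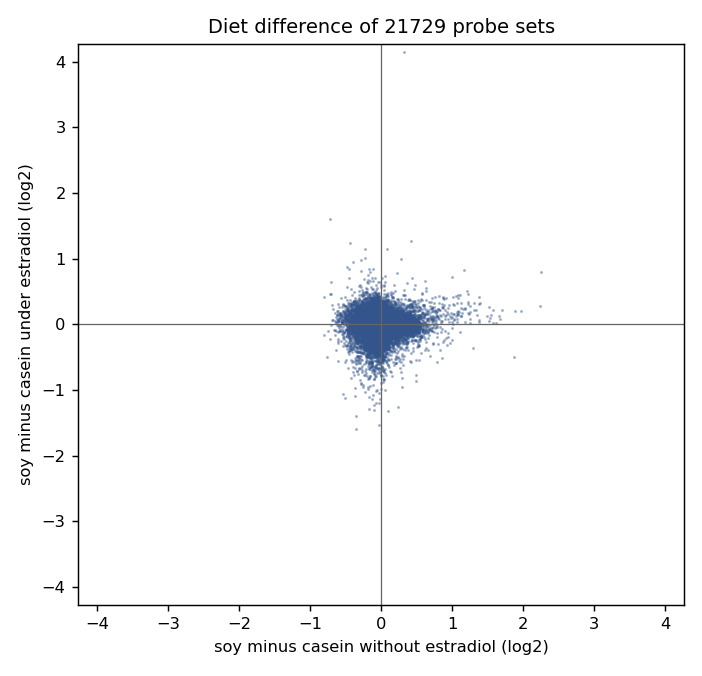
Soy minus casein difference (log2) without estradiol (horizontal axis) and under estradiol (vertical axis), with 1 point for each of 21729 probe sets. The points form a cloud around 0 with no common slope (r = 0.025), and the largest value under estradiol, 4.14, is the unnamed probe set that was high in soy estradiol replicate 1.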

How the data were processed

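The authors deposited 1 table of log2 expression values for 31099 Affymetrix probe sets in 12 arrays of testis RNA. The submitters' processing notes name GCOS; the summarisation method behind the log2 values and the number of animals per array are not given in the sources used here, and arrays limit the precision by their number, 3 per group. Quartiles of the deposited values differed between arrays by up to 0.18, more than a limit of 0.15, so the 12 arrays were quantile normalised, 57 control probe sets were dropped and the 30% of probe sets with the lowest mean (below 5.69) were not tested. A probe set was named only where the platform annotation gives 1 gene symbol (20826 of 31042; 436 have several, 9780 none); 20758 were matched to RefSeq's GRCr8 table, from which the promoters come.

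The 4 groups entered 1 model in limma 3.58.1 (R 4.3.3; lmFit, eBayes with a mean-variance trend), and p-values were adjusted by Benjamini-Hochberg over 21729 probe sets, with a call at 0.05. The fit was tested on simulated data. A listed gene is shown by its probe set with the highest mean. Named were the 5 genes with the smallest p in each direction, since no named gene was called, the 3 with the smallest p and the 5 with the widest range in a list, the 15 with the largest SD within groups, and the 5 farthest from their group in each array, shortened from the end; genes named outside this rule, such as Insl3 in the marker check, Krt8, Adipoq, Gapdhs, Crisp2, Tnp1, Tnp2 and Prm1, were chosen after their values were seen. The array comparison, the 23 gene lists and the rule were chosen with earlier results of these data known. Alternatives changed the normalisation, the filter, the trend, the array weights, a replicate block, the arrays fitted and each array in turn. Same-numbered casein and soy estradiol arrays deviated together at r = -0.11, 0.35 and -0.36, so the numbers were not taken to pair the samples.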

Additional observations from a re-analysis of the deposited data

Results flagged for a closer look

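For 9 named genes and 1 unnamed probe set the diet difference under estradiol was tested to differ from the one without estradiol (limma, interaction of diet and estradiol, adjusted over 21729 probe sets). The change in the difference was 0.61 ± 0.14 (SE) for Serpinb9 (adjusted p = 0.038), 0.77 for Mex3a (0.015), 0.66 for Plac8 (0.033), 0.54 for Tcf4 (0.020) and 0.51 for Id2 (0.039). In these 5 genes soy was above casein under estradiol and at or below it without. It was -0.63 for Efhd1 (0.025), which differed by -0.53 under estradiol and by 0.09 without. It was 0.74 for Myh6 (0.033), 0.77 for the Greb1 probe set with the highest mean (0.016), 0.50 for Sult1a1 (0.041) and 1.36 for probe set 1382482_at (0.00099). The genes were named for a small p of the diet difference under estradiol, which is 1 side of this contrast, so the tests are not independent of that choice.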

How the results depend on the processing

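The count of probe sets called for diet under estradiol, 1 with all arrays, was 0 with a filter on the lowest 50%, 0 with only the 6 estradiol arrays and 0 without the 2 arrays of lowest spermatid levels (casein replicate 3 and soy replicate 1, an alternative chosen after seeing the data). It was 499 with array quality weights, 704 without casein estradiol replicate 2 and soy estradiol replicate 1, and 0 to 372 with 1 replicate left out. The count at an unadjusted p under 0.05, 2784, was 1558 with only the 6 estradiol arrays, 4935 without casein estradiol replicate 2 and soy estradiol replicate 1, and 1676 to 4435 with 1 replicate left out. The count of changed diet differences, 741, was 1244 with arrays centred on medians, 434 with the 50% filter, 3318 with weights, 246 without the 2 arrays of lowest spermatid levels, and 156 to 1048 with 1 replicate left out. With the replicate number as a block, 0 probe sets were called for diet under estradiol, 2688 had an unadjusted p under 0.05, and 393 changed diet differences were called. The distance between the highest and lowest epididymis median over the 6 arrays was 0.19 over tested members and 0.26 over all measured members; the cause was not tested. The spermatid distance of 0.64 and the muscle distance of 0.24 moved by less than the spread between replicates in every setting run. Of 1709 values of 108 probe sets under the alternatives, 72 passed the threshold newly and 7, all of probe set 1382482_at, no longer passed it. In 47 values, of 22 probe sets, the sign was the other one, and none of these was called on either side. The 108 were picked for a small p, lacked 1 gene symbol or were chosen after values were seen, and some are not described here. Genes named only for their range, SD or distance from their group, such as Acta1 and Adam7, were not followed, so these counts do not cover them. Leaving out a replicate leaves 2 arrays in its group and fewer samples; probe sets near the filter are limited by signal over background.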
